A study of Mus musculus with 10 samples.

Results

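The chaperones that fold new proteins in the endoplasmic reticulum (ER), and the transcription factors that adjust them under stress, were examined in the mouse preoptic region. The set held 10 genes: the chaperones Hspa5 and Hsp90b1, the lectin chaperones Calr and Canx, the disulfide isomerases Pdia3, Pdia4 and Pdia6, and the transcription factors Xbp1, Atf4 and Ddit3. Every probe set whose annotation named exactly 1 gene, and that gene one of the 10, was taken, which gave 26 of the 45037 probe sets tested and 10 of 18193 named genes. The tested arrays came from 5 DBA1/lacJ mice labelled knockout (KO) for mPGES-1, the microsomal enzyme, encoded by Ptges, that makes prostaglandin E2 in inflammation. They were set against arrays from 5 mice of that strain labelled wild-type (WT). Both groups had received 120 µg/kg of bacterial lipopolysaccharide (LPS) intraperitoneally, and brains were taken 5 h later. The preoptic region was isolated by laser capture, and its RNA was amplified in 2 rounds before hybridisation, 1 mouse to 1 array. Mice without LPS were not analysed here, so each value compares genotypes within LPS-treated animals, and the deleted stretch of Ptges is not stated in the labels.

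Hspa5 encodes BiP, the chaperone of the ER lumen that binds unfolded proteins and holds the stress sensors IRE1, PERK and ATF6 inactive. When unfolded proteins accumulate, IRE1 splices the Xbp1 transcript, ATF6 is cleaved to an active factor, and PERK slows translation while favouring synthesis of ATF4, which induces Ddit3 (CHOP). XBP1 and ATF6 induce chaperone genes, ATF4 and CHOP induce genes of amino acid supply and cell death, and this unfolded protein response (UPR) is engaged in the brain by injury and inflammation. Splicing, cleavage and translation are not measured by these arrays, which report transcript level. The question was whether Hspa5 differed between the genotypes together with the other genes of this response.

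ATF6, with NF-Y, binds the ER stress response element, in which 9 bases of any kind separate CCAAT from CCACG. Both strands were searched from 250 bases before to 50 bases after each start in RefSeq promoters (GRCm38.p6). The element was found in 39 of 32851 promoters (0.12%) and in 5 of the 10 members. These stretches are shown because they separate the members into those with and without a match, and the capitals mark the element as it reads on the gene's strand. Hspa5 had 1 match that began 65 bases before the start, Pdia6 had 1 at 98 bases, and Canx had 1 at 145 bases. Calr had 1 match at 162 bases, on the opposite strand, and Hsp90b1 had matches at 212 bases and, on the opposite strand, at 107 bases.
Hspa5, chr2:34771940-34772089, plus strand: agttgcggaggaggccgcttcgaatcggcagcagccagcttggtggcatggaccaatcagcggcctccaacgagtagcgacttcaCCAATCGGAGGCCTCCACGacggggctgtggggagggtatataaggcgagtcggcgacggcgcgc
Pdia6, chr12:17266471-17266529, plus strand: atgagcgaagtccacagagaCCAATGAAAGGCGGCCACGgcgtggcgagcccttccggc
Hsp90b1 upstream match, chr10:86705618-86705676, minus strand: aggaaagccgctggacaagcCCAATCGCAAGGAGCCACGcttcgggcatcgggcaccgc
Hsp90b1 downstream match, chr10:86705513-86705571, minus strand: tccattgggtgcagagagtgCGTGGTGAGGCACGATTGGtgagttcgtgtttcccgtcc
Calr, chr8:84847055-84847113, minus strand: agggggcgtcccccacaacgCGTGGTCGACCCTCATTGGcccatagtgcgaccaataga
Canx, chr11:50325780-50325838, minus strand: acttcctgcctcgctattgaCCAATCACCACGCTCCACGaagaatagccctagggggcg
No match lay in the windows of Pdia3, Pdia4, Ddit3, Xbp1 and Atf4. This says only that these exact letters, with this spacing, were not in those windows.

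The arrays differed as a whole between the groups. The median intensity was 24.61 to 29.84 on the arrays labelled KO and 32.01 to 44.79 on those labelled WT, although the authors' scaling gave each array the same trimmed mean. The 99th percentile was 7503.2 to 8279.9 on KO arrays and 8579.1 to 9229.8 on WT arrays, and the median hybridisation control signal was 406.6 to 862.1 on KO arrays and 684.1 to 2055.2 on WT arrays. The median difference over all 45037 probe sets was -0.13 (log2, KO minus WT), against -0.01 after quantile normalisation and 0.15 after centring each array on its median. The Ptges transcript did not follow the labels. Its probe set 1439747_at read 76.1, 17.5, 56.2, 67.8 and 32.2 on the 5 arrays labelled KO, against 5.29, 2.22, 9.33, 4.35 and 1.51 on those labelled WT (limma adjusted p = 0.111). The probe sets 1449449_at and 1449450_at differed by 0.95 and 0.27 (log2, KO minus WT). Every direction below is thus between arrays as labelled. Summed markers of striatal and septal neurons (9 of 11 listed genes measured) ran from 2140 to 7723 on KO arrays and from 1899 to 2715 on WT arrays, and 8 of the 9 genes were higher, with a median difference of 0.93. Preoptic and hypothalamic markers summed to 2888 to 4007 on KO arrays and 3176 to 4618 on WT arrays (12 of 12 genes), with 4 genes higher and 8 lower. Microglial markers summed to 4838 to 7017 on KO arrays and 6760 to 10441 on WT arrays. Most of that sum was Csf1r, at 4477 to 6213 on KO arrays and 6241 to 9479 on WT arrays. Of the 8 microglial genes, 6 were lower and 2 higher (P2ry12 at 0.39 and Tmem119 at 0.36). The median over these 8 was -0.31, or -0.08 after quantile normalisation. Choroid plexus and ependymal markers summed to 1116 to 6806 on KO arrays and 788 to 1239 on WT arrays, the top value being KO replicate 3 with a Ttr intensity of 6161. Of these 8 genes 5 were higher and 3 lower. Of the defining markers, Ppp1r1b (striatum), Pecam1 (endothelium) and Folr1 and Kcne2 (choroid plexus) had mean intensities below 16. Astrocyte markers summed to 17625 to 23966 on KO arrays and 21996 to 27227 on WT arrays. Of the 7 astrocyte genes 3 were higher and 4 lower, with a median of -0.02. Gfap (-0.73) and Aldoc (-0.29) were lower with no overlap between the groups, while Gja1 (0.46) and Slc1a3 (0.16) were higher. Oligodendrocyte markers summed to 11208 to 17000 on KO arrays and 12433 to 17754 on WT arrays, with 2 of 6 genes higher. Endothelial and mural markers summed to 2259 to 3450 on KO arrays and 2823 to 4761 on WT arrays, with 2 of 8 genes higher. The part of these differences in the results below was not tested, and in such bulk tissue fewer cells of a type cannot be told apart from less RNA per cell.

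Across the 10 genes, no probe set passed an adjusted p of 0.05 in limma, and probe sets of 1 gene often differed in direction. Values were compared as log2(intensity + 16), and all differences are KO minus WT on that scale. Of the 45037 probe sets 0 were called (0%), and of the 26 member probe sets 0 were called, with the smallest adjusted p at 0.153. At an unadjusted p below 0.05, 4 member probe sets were higher, where 3.68% of all probe sets were, and 2 were lower, where 8.97% of all were. The groups did not overlap for 1 member probe set that was higher (0.808% of all) and 1 that was lower (2.42% of all). In all, 11 member probe sets were higher and 15 were lower with a median of -0.05, but 14 were higher after quantile normalisation and 21 after median centring. Of all 45037 probe sets, 15717 were higher, 21924 after quantile normalisation and 30729 after median centring. For 7 of the 10 genes the probe sets fell on both sides of 0. The brightest probe set of a gene, leaving aside any ending in _x_at unless it had no other, is called its primary probe set. Of the 10 primary probe sets, 5 were higher and 5 lower with a median of -0.01, against -0.09 over the primary probe sets of all genes. The probe set with the strongest signal is not always the most specific one: in Affymetrix names, _s_at and _x_at mark sets whose probes can match more than 1 transcript.

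**Figure D1:**
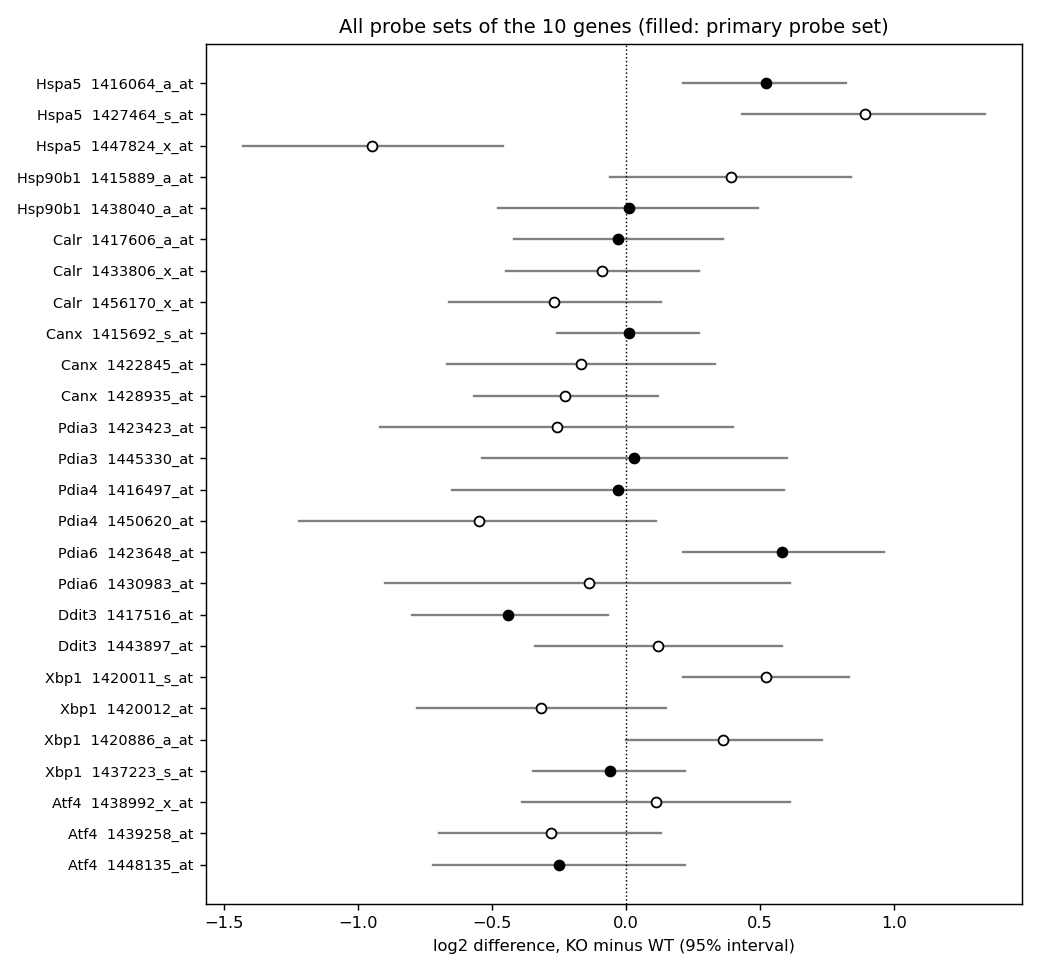
Log2 difference between the arrays labelled KO and those labelled WT (x axis, KO minus WT, with 95% intervals from limma) for each of the 26 probe sets of the 10 genes (y axis), filled where the probe set is the gene's primary one. The intervals of all 3 Hspa5 probe sets and of 1 each of Pdia6, Ddit3 and Xbp1 lie off 0 before adjustment, and the 3 Hspa5 probe sets lie at 0.52, 0.89 and -0.95.

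The Hspa5 transcript, by its brightest probe set, was measured higher on the arrays labelled KO. Probe set 1416064_a_at read 4774, 3183, 4238, 4767 and 3879 on the arrays labelled KO, against 2646, 2619, 2734, 3388 and 3087 on those labelled WT. Of the 5 arrays labelled KO, 4 were above every array labelled WT, and KO replicate 2 lay between the WT values. The means were 4168 ± 668 on KO arrays and 2895 ± 333 on WT arrays (SD, n = 5 each). The difference was 0.52 (SE 0.15, 95% interval 0.21 to 0.82), or 1.43-fold, with an unadjusted p of 0.0024 and an adjusted p of 0.182 in limma. After median centring, which raises all genes, it was 0.80 with an adjusted p of 0.026; over the 11 other settings the adjusted p ran from 0.026 to 0.382.

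The other 2 probe sets of Hspa5 lay on opposite sides of 0. Probe set 1427464_s_at read 459, 516, 322, 285 and 497 on KO arrays, against 299, 202, 138, 214 and 234 on WT arrays. It was again above every WT array on 4 of 5 KO arrays, and the difference was 0.89 (SE 0.22), or 1.85-fold, with a limma adjusted p of 0.153. Probe set 1447824_x_at read 316, 214, 311, 262 and 216 on KO arrays, against 724, 813, 319, 457 and 423 on WT arrays. Here the groups did not overlap and the KO arrays were the lower ones, with a difference of -0.95 (SE 0.23, 95% interval -1.43 to -0.46) and a limma adjusted p of 0.153. These signs held after quantile normalisation, at 0.55, 0.85 and -1.01 for the 3 probe sets in the order given. Across the 10 arrays with group means removed, the 3 Hspa5 probe sets did not track each other: the pairwise r were -0.35, 0.04 and 0.25. Of 9 such pairs computed for Hspa5 and Xbp1, none had an adjusted exact permutation p below 0.81 for r or 0.78 for rho. The annotation gives all 3 to Hspa5, and which stretch of the transcript each reads was not used here. The log2 ratio of 3' to 5' Gapdh control signal was 5.05 to 5.69 on KO arrays and 4.62 to 5.74 on WT arrays. Whether this bears on the opposite directions was not tested.

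**Figure D2:**
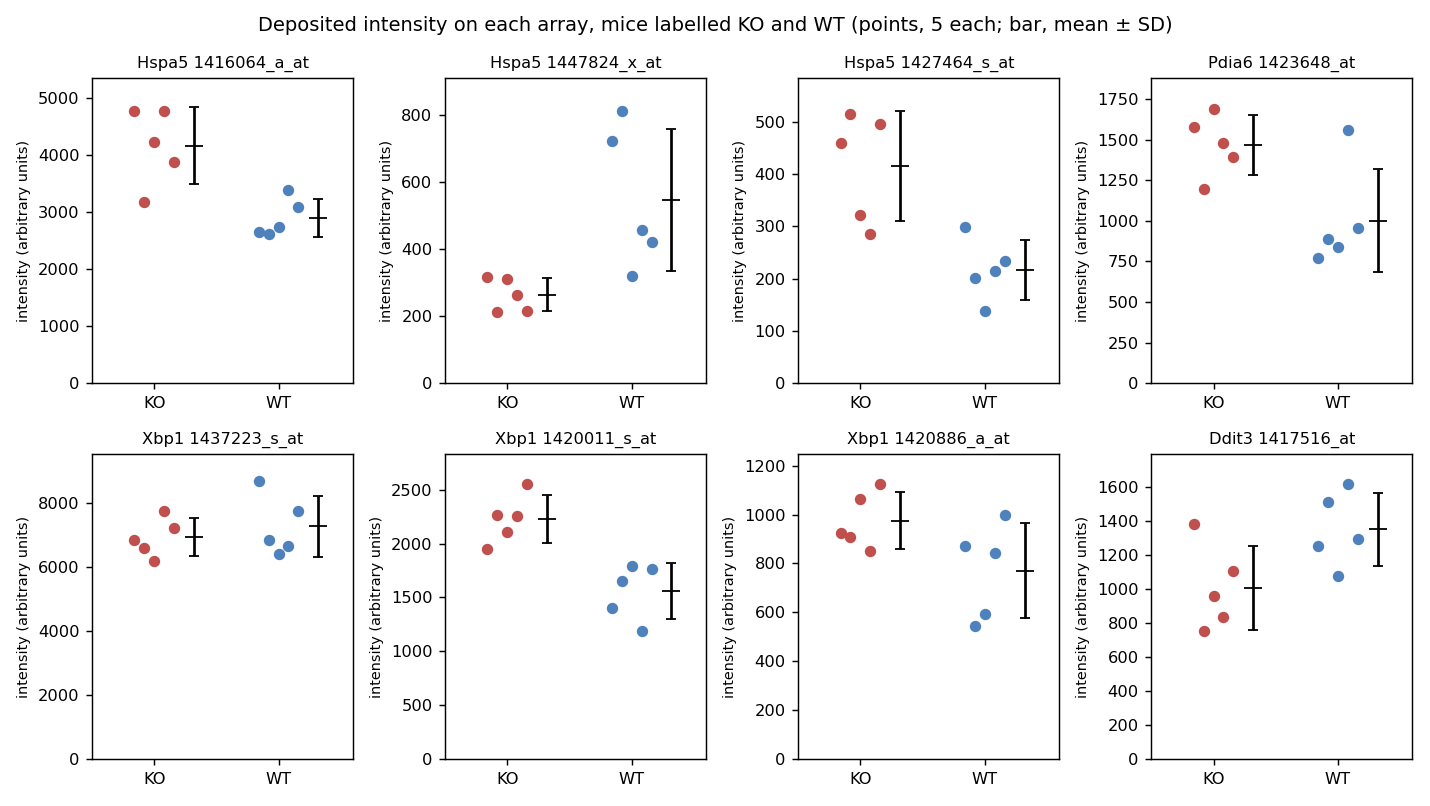
Deposited intensity (y axis, arbitrary units, from 0) on each of the 5 arrays labelled KO and 5 labelled WT (x axis) for 8 probe sets of Hspa5, Pdia6, Xbp1 and Ddit3, with mean ± SD beside the points. Hspa5 1447824_x_at and Xbp1 1420011_s_at have no overlap between the groups, in opposite directions, and WT replicate 4 stands among the KO arrays for Pdia6.

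Hsp90b1 encodes GRP94, the HSP90 of the ER lumen. Its primary probe set 1438040_a_at read 482, 1232, 1233, 947 and 1476 on KO arrays, against 909, 941, 1124, 1187 and 882 on WT arrays. The KO arrays spanned the WT arrays on both sides, with KO replicate 1 the lowest of all 10. The difference was 0.01 (SE 0.23), with a 95% interval of -0.48 to 0.49. Probe set 1415889_a_at read 209, 273, 306, 384 and 241 on KO arrays, against 137, 263, 257, 236 and 176 on WT arrays. The groups overlapped, with 3 KO arrays above every WT array and a difference of 0.39 (SE 0.21, limma adjusted p = 0.453).

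Calr (calreticulin) and Canx (calnexin), the soluble and the membrane-bound lectin chaperones that hold glycoproteins until they fold, had 6 probe sets, and none had an unadjusted p below 0.05. Calr 1417606_a_at read 5670, 6229, 4982, 5756 and 7049 on KO arrays, against 6779, 4057, 8299, 7291 and 4736 on WT arrays. All KO arrays lay inside the range of the WT arrays, and the difference was -0.03 (SE 0.18, 95% interval -0.42 to 0.36). Calr 1433806_x_at read 2629, 2543, 1755, 2420 and 2301 on KO arrays, against 2769, 1822, 2983, 3075 and 1937 on WT arrays, and differed by -0.09. Calr 1456170_x_at read 4088, 3829, 3010, 3924 and 3871 on KO arrays, against 4975, 2971, 4886, 6886 and 3663 on WT arrays, and differed by -0.27 (SE 0.19, limma adjusted p = 0.566). The WT arrays were the more spread for all 3 Calr probe sets, with WT replicate 2 low and WT replicate 4 high in the last of them.

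Canx 1415692_s_at read 4352, 4609, 3824, 4533 and 4234 on KO arrays, against 4657, 3953, 4482, 3999 and 4371 on WT arrays. These were the tightest groups among the primary probe sets, with a log2 SD of 0.11 on KO arrays and 0.10 on WT arrays. The difference was 0.01 (SE 0.12), and its 95% interval, -0.26 to 0.27, lay below the Hspa5 estimate of 0.52. The difference between Canx and Hspa5 was not itself tested. Canx 1422845_at read 85.5, 148, 81.2, 92.5 and 63.2 on KO arrays, against 104, 126, 91.5, 78.8 and 127 on WT arrays (difference -0.17). Canx 1428935_at read 394, 437, 301, 412 and 384 on KO arrays, against 370, 527, 411, 535 and 431 on WT arrays (difference -0.23, limma adjusted p = 0.581). Both overlapped between the groups.

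Among the disulfide isomerases, which form and rearrange disulfide bonds of new proteins, Pdia6 was measured higher on KO arrays, while Pdia3 and Pdia4 were dim and lay near 0 by their primary probe sets. Pdia6 encodes an isomerase that associates with BiP. Its probe set 1423648_at read 1580, 1195, 1687, 1477 and 1395 on KO arrays, against 768, 885, 839, 1558 and 957 on WT arrays. All 5 KO arrays were above 4 of the WT arrays, and WT replicate 4 lay among the KO values. The difference was 0.58 (SE 0.18, 95% interval 0.21 to 0.96), or 1.5-fold, with a limma adjusted p of 0.210 (0.034 after median centring, and 0.034 to 0.473 over the 11 other settings). The means were 1467 ± 187 on KO arrays and 1001 ± 319 on WT arrays (SD, n = 5 each). A dimmer Pdia6 probe set, 1430983_at, read 28.4, 27.4, 36.7, 27.5 and 73.8 on KO arrays, against 87.2, 13.7, 39.2, 76.3 and 25.4 on WT arrays. It overlapped fully, with a difference of -0.14 and a 95% interval of -0.90 to 0.61.

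Pdia3 (ERp57) works with calreticulin and calnexin on glycoproteins. Its probe set 1445330_at read 166, 75.3, 75.4, 73.2 and 72.5 on KO arrays, against 59.8, 114, 108, 106 and 57.0 on WT arrays (difference 0.03, SE 0.27). Apart from KO replicate 1, the KO arrays were within a few units of each other and between the WT values. Pdia3 1423423_at read 54.2, 34.0, 112, 50.8 and 43.5 on KO arrays, against 53.9, 111, 33.8, 98.8 and 72.3 on WT arrays (difference -0.26, SE 0.31). Pdia4 (ERp72), another isomerase of the lumen, read 56.0, 60.2, 50.4, 25.2 and 52.6 on KO arrays by 1416497_at, against 23.8, 75.4, 42.8, 49.0 and 66.3 on WT arrays. The difference was -0.03, and the 95% interval of -0.65 to 0.59 covers the size measured for Hspa5. Pdia4 1450620_at was among the dimmest 40% of probe sets and read 21.9, 1.44, 14.0, 1.06 and 7.76 on KO arrays, against 4.89, 37.4, 22.2, 33.7 and 9.72 on WT arrays (difference -0.55, limma adjusted p = 0.476).

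Xbp1, the factor made active by IRE1, gave 4 probe sets that did not share a direction. The primary one, 1437223_s_at, read 6843, 6609, 6202, 7761 and 7227 on KO arrays, against 8699, 6840, 6392, 6665 and 7754 on WT arrays. The groups overlapped, with a difference of -0.06 (SE 0.14, 95% interval -0.35 to 0.22). Probe set 1420011_s_at read 1949, 2262, 2106, 2257 and 2552 on KO arrays, against 1399, 1648, 1795, 1189 and 1760 on WT arrays. Every KO array was above every WT array, and the difference was 0.52 (SE 0.15, 95% interval 0.21 to 0.83), or 1.43-fold, with a limma adjusted p of 0.180. That limma adjusted p was 0.029 after median centring and ran from 0.029 to 0.312 over the 10 other settings. Without 1 array it ran from 0.138 to 0.377. Probe set 1420886_a_at read 926, 910, 1065, 849 and 1126 on KO arrays, against 873, 546, 592, 842 and 1000 on WT arrays (difference 0.36, SE 0.17, limma adjusted p = 0.400). WT replicates 2 and 3 were the low arrays there, and the other WT arrays lay among or near the KO arrays. The dim 1420012_at ran from 94.9 to 170 on KO arrays and from 118 to 225 on WT arrays, with a difference of -0.32 (SE 0.22) that was -0.20 without WT replicate 2 and -0.04 after median centring. The 6 pairs of Xbp1 probe sets had r between -0.58 and 0.40 over the 10 arrays with group means removed. No probe set is known here to tell spliced from unspliced Xbp1.

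Atf4, the factor favoured when PERK slows translation, was dim by its primary probe set 1448135_at, which read 114, 71.7, 87.1, 105 and 113 on KO arrays, against 113, 78.5, 147, 116 and 148 on WT arrays. The groups overlapped, with a difference of -0.25 (SE 0.22, 95% interval -0.72 to 0.22). It was -0.16 without KO replicate 2 and -0.37 without WT replicate 2. Atf4 1438992_x_at read 2284, 4275, 2131, 2993 and 3151 on KO arrays, against 2694, 3176, 4465, 1542 and 2274 on WT arrays, and all KO arrays lay inside the WT range (difference 0.11, SE 0.24). The dimmest, 1439258_at, ran from 0.868 to 2.63 on KO arrays and from 1.79 to 20.8 on WT arrays.

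Ddit3, the gene of the cell death factor CHOP, was measured lower on KO arrays. Its probe set 1417516_at read 1381, 755, 960, 838 and 1104 on KO arrays, against 1254, 1512, 1078, 1619 and 1296 on WT arrays. On 3 KO arrays it was below every WT array, while KO replicate 1 was above 3 of the WT arrays. The means were 1008 ± 247 on KO arrays and 1352 ± 215 on WT arrays (SD, n = 5 each). The difference was -0.44 (SE 0.17, 95% interval -0.80 to -0.07), a ratio of 0.739, with an unadjusted p of 0.021 and a limma adjusted p of 0.311. It was -0.49 after quantile normalisation and -0.156 after median centring (limma adjusted p = 0.746). It stayed below 0 in all 21 other settings and left-out arrays, between -0.556 and -0.156. The dim Ddit3 probe set 1443897_at read 4.65, 15.0, 7.82, 1.05 and 1.20 on KO arrays, against 2.37, 1.36, 15.0, 1.42 and 1.10 on WT arrays (difference 0.12).

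Whether Hspa5 moved with the others from mouse to mouse was asked with the primary probe sets over the 10 arrays, after each group's mean was removed, so the genotype difference did not enter. Pdia6 had the highest r of the 9 genes, 0.74 with a rho of 0.84 (exact permutation within groups, two-sided, p = 0.0045 for each, adjusted p = 0.041 for each over 9 relations). Without the 2 arrays farthest from the Hspa5 median, r was 0.69, and over the 7 arrays with signal from the poly-A spike-in controls it was 0.76. The adjusted exact permutation p for Pdia6 was 0.060 after quantile normalisation, 0.098 after median centring and 0.062 over the 7 spike-in arrays. It was also above 0.05 without KO replicate 1 (0.075), KO replicate 2 (0.203), KO replicate 5 (0.150), WT replicate 1 (0.072), WT replicate 3 (0.062), WT replicate 4 (0.211) or WT replicate 5 (0.134), while r stayed between 0.73 and 0.80. On WT replicate 4 both were highest in their group, Hspa5 by 0.23 and Pdia6 by 0.68 above the group mean on the log2 scale. On KO replicate 2 both were lowest, by -0.37 for Hspa5 and -0.28 for Pdia6. The other 2 Hspa5 probe sets, whose r with the primary one were -0.35 and 0.04, were not set against Pdia6.

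**Figure D3:**
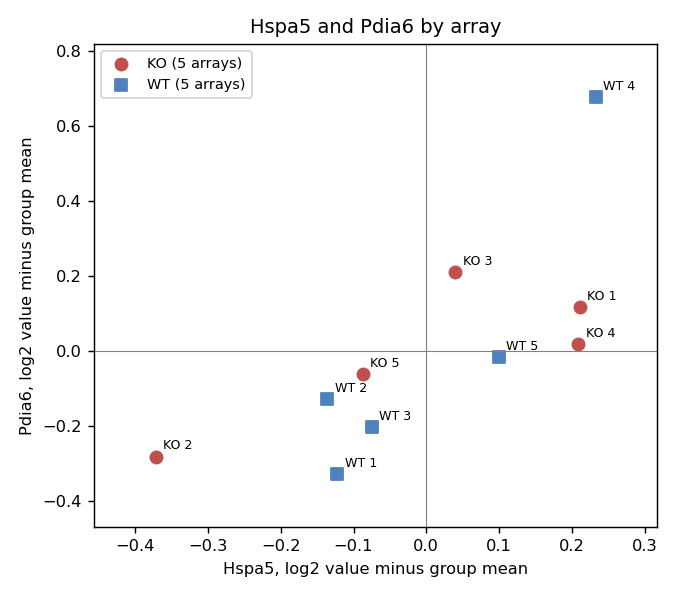
Hspa5 (x axis) and Pdia6 (y axis) on each array, as log2 value of the primary probe set minus the mean of its group, for the 5 arrays labelled KO (circles) and the 5 labelled WT (squares). The points run together with r = 0.74, with KO replicate 2 at the low end and WT replicate 4 at the high end.

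The remaining 8 genes gave no adjusted exact permutation p below 0.53. The r with Hspa5 was 0.54 for Atf4, 0.52 for Ddit3, 0.28 for Pdia3, 0.07 for Xbp1, -0.05 for Calr, -0.19 for Pdia4, -0.27 for Canx and -0.43 for Hsp90b1. For Ddit3 the r was 0.17 without the 2 farthest arrays. As a description of these arrays, r with Hspa5 over 22870 bright probe sets of other genes had a median of 0.02 and ran from -0.62 at the 5th percentile to 0.62 at the 95th. The probe sets most like Hspa5 by r were those of Apaf1 (0.969), Lias (0.957), Snx4 (0.955), Polr2e (0.944) and Ddr2 (0.923), over the 10 arrays. Their differences between the groups ran from -0.07 for Lias to 0.38 for Polr2e. The mean poly-A spike-in signal was 15.1, 3.59 and 5.9 on WT replicate 2, KO replicate 3 and WT replicate 5. On the other arrays it was 491 or more. Its bearing on these r was not tested.

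The members with the promoter element were not uniformly higher. Of the 5 with a match, Hspa5 and Pdia6 were at 0.52 and 0.58, and Hsp90b1, Canx and Calr were at 0.01, 0.01 and -0.03, with a median of 0.01. The 5 without a match had a median of -0.06, with 1 higher and 4 lower. After quantile normalisation the medians were 0.10 with the match and 0.08 without. In the whole genome 37 of 27025 genes held the element, and 20 of them had a primary probe set. Of these 20 genes, 10 were higher and 10 lower, with a median of -0.01. After quantile normalisation 14 of the 20 were higher, where 9056 of all 18193 genes were. Of the 15 that were not members, 6 were higher and 9 lower, with a median of -0.07. At an unadjusted limma p below 0.05, 1 of them was higher (Dnajc3) and 1 lower (Adcy3, at -0.38). Picked from the 15 for their role in ER folding or degradation were Dnajc3 at 0.56, Creld2 at 0.26, Syvn1 at 0.11, Derl3 at -0.04 and Ero1b at -0.09.

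The wider response, together with heat shock genes, was read from 6 lists, 117 further genes in all. The last list, 13 heat shock chaperones outside the ER, holds genes that respond to HSF1 and is pooled in these counts. It gave 10 of the genes that were higher, 4 of them at an unadjusted limma p below 0.05, and 3 that were lower. In limma 0 of the 117 passed an adjusted p of 0.05, and 13 were higher and 3 lower at an unadjusted p below 0.05. Over the primary probe sets of all 18193 genes, 5.32% were higher and 8.68% lower at that p. In all, 67 of the 117 were higher and 50 lower, with a median of 0.04, against 7171 of 18193 higher and a median of -0.09 over all genes. Of the 117, 116 were above the dimmest 40% of probe sets. There, 6033 of 13490 primary probe sets were higher, with a median of -0.05, or 0.02 after quantile normalisation and 0.23 after median centring. At an unadjusted limma p below 0.05, 935 of the 13490 were higher and 1147 lower. After quantile normalisation 70 of the 117 were higher, with a median of 0.05, where 9056 of all 18193 genes were higher. After median centring 101 were higher, with a median of 0.32. In that setting 13042 of all 18193 genes were higher, with a median of 0.19. Median centring called 6 of the 117, each one higher on KO arrays. Over all 45037 probe sets it called 550, of which 545 were higher.

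Of 28 other ER chaperones and folding enzymes, 26 were higher after median centring (median 0.36), where 13042 of all 18193 genes were higher. Without that centring, 18 were higher and 10 lower, with a median of 0.08. At an unadjusted p below 0.05, 5 were higher and 1 lower, where 5.32% of all genes were higher and 8.68% lower. Dnajc3, the BiP co-chaperone p58IPK, read 457, 557, 534, 662 and 589 on KO arrays, against 429, 401, 374, 361 and 309 on WT arrays. The groups did not overlap, and the difference was 0.56 (SE 0.16, limma adjusted p = 0.180). Hspa13, an HSP70 relative of the ER, read 1566, 1756, 1342, 1682 and 1883 on KO arrays, against 1272, 1403, 1275, 939 and 1048 on WT arrays (0.47, SE 0.15, limma adjusted p = 0.218). On 4 of the KO arrays it was above every WT array. The 1 lower gene, named after its values were seen, was Hyou1 (GRP170), a nucleotide exchange factor of BiP. It read 608, 661, 438, 426 and 567 on KO arrays, against 746, 800, 931, 863 and 543 on WT arrays (-0.51, SE 0.18, limma adjusted p = 0.254). The chaperones of this list therefore lay on both sides of 0, as the members did.

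Of the UPR sensors and their partner factors, 4 of 11 were higher and 7 lower, with a median of -0.12 that was 0.09 after quantile normalisation and 0.16 after median centring. Mbtps2, the site-2 protease that cleaves ATF6, read 817, 734, 632, 786 and 705 on KO arrays, against 490, 578, 468, 453 and 550 on WT arrays. No WT array reached a KO array, and the difference was 0.52 (SE 0.14, limma adjusted p = 0.177). Nfe2l1, an ER-anchored transcription factor, was at -0.41 (SE 0.20, limma adjusted p = 0.405), from 328 to 468 on KO arrays and from 337 to 783 on WT arrays.

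Of the ATF4 and CHOP target genes, 8 of 26 were higher and 18 lower, with a median of -0.15 that was -0.05 after quantile normalisation and 0.13 after median centring. Chac1, a glutathione-degrading enzyme induced by ATF4, read 243, 201, 152, 272 and 260 on KO arrays, against 431, 369, 263, 351 and 282 on WT arrays. On 4 KO arrays it was below every WT array, with a difference of -0.56 (SE 0.20, limma adjusted p = 0.254). After median centring the Chac1 difference was -0.281 (limma adjusted p = 0.551). Ddit4 (REDD1), a stress-induced inhibitor of mTORC1, was higher by 0.50 (SE 0.21, limma adjusted p = 0.330), from 522 to 965 on KO arrays and from 406 to 855 on WT arrays.

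Of the genes for ER-associated degradation, 14 of 21 measured (22 listed) were higher and 7 lower, with a median of 0.11, and 19 were higher after median centring, with a median of 0.39. The 2 with the smallest p were lower: Edem2, a dim gene of glycoprotein trimming, at -0.82 (SE 0.34, limma adjusted p = 0.332), and Erlec1, an ER lectin, at -0.30 (SE 0.16, limma adjusted p = 0.424). Edem2 ran from 5.15 to 30.4 on KO arrays and from 18.9 to 88.2 on WT arrays, so 2 KO arrays lay within the WT range. Of the translocon and signal peptide processing genes, 13 of 18 measured (20 listed) were higher and 5 lower, with a median of 0.07. After median centring 17 were higher, with a median of 0.35. In that setting 13042 of all 18193 genes were higher, with a median of 0.19. Ssr3, a subunit of the translocon-associated complex, was at 0.40 (SE 0.16, limma adjusted p = 0.301), and Spcs1, of the signal peptidase, was at 0.38 (SE 0.17, limma adjusted p = 0.367), or at 0.24 without WT replicate 2.

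Of the heat shock chaperones outside the ER, genes that respond to HSF1, 10 of 13 measured (15 listed) were higher and 3 lower. Of these, 2 encode the mitochondrial chaperonins HSP60 and HSP10, Hspd1 at 0.40 and Hspe1 at 0.32, and of the other 11, which act in the cytosol and nucleus, 8 were higher. All 13 together had a median of 0.26 that was 0.26 after quantile normalisation and 0.54 after median centring. Hspa1b, an inducible HSP70, read 614, 1083, 536, 832 and 1061 on KO arrays, against 448, 501, 468, 258 and 469 on WT arrays. The groups did not overlap, with a difference of 0.90 (SE 0.22), or 1.87-fold, and a limma adjusted p of 0.153. Hspa4l, an HSP110 family chaperone, read 766, 968, 837, 670 and 883 on KO arrays, against 536, 692, 514, 546 and 451 on WT arrays (0.58, SE 0.16, limma adjusted p = 0.171). Whether this list differed from the ER lists was not tested.

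**Figure D4:**
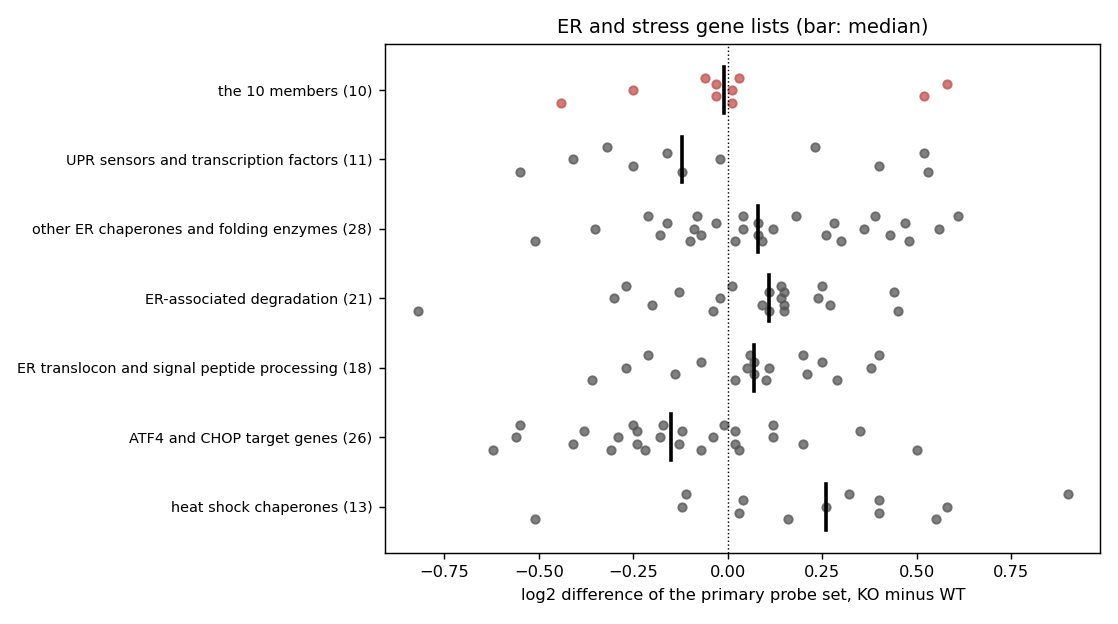
Log2 difference between arrays labelled KO and WT (x axis, KO minus WT) of the primary probe set of each gene (points) in the 10 members and 6 wider lists (y axis, number measured in brackets), with the list's median as a bar. The members' median is -0.01, and the medians of the wider lists run from -0.15 for ATF4 and CHOP targets to 0.26 for heat shock chaperones outside the ER.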

How the data were processed

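RNA of the preoptic region of 10 mice was measured on 1 array each. The deposited intensity values are linear and were made by the authors with GCOS, per the submitters' processing notes, with version, settings and detection calls not given in the sources used here. Each array had been scaled as a whole to 1 trimmed mean (2% off each end), which leaves the shape of its distribution in place. Of 45101 probe sets 64 were controls, 34945 named 1 gene, 932 several and 9160 none, and 34741 matched RefSeq (GRCm38.p6) by Entrez ID.

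Values were tested as log2(intensity + 16) over all 45037 probe sets with limma 3.58.1 (intensity trend, Benjamini-Hochberg) in R 4.3.3, genotype being the only term, after the procedure was tested on simulated data. Fold changes understate those of dim genes. Each array is a different mouse, so the spread behind the p-values is that of animals plus dissection, amplification and hybridisation. Correlations used exact permutation within groups (Python 3.11.15, scipy 1.17.1, numpy 2.4.6). No pair of arrays shared over 0.00444% of values. Same-numbered KO and WT arrays did not deviate together (r -0.092 to 0.045). That cannot show whether the numbers paired the mice in the design.

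The members, lists and tests were chosen with earlier results of these data known. Named were all members, of each wider list the 2 genes with the smallest p, Ptges, and the 5 bright probe sets most correlated with Hspa5. Hyou1, Hspd1 and Hspe1, and the microglial genes Csf1r, P2ry12 and Tmem119, were added after the values were seen. So were the astrocyte genes Gfap, Aldoc, Gja1 and Slc1a3, and the promoter element genes with those named from them. Alternatives were pseudocounts, scaling, dim filters, array weights, no trend, spike-in and replicate blocks, and leaving out each array.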

Additional observations from a re-analysis of the deposited data

Results flagged for a closer look

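In 6 of the 52 groups of 5 arrays (26 probe sets in each genotype), 1 array stood apart from the other 4 by a gap over 0.71 of the group's range, where chance gives about 1 group in 20. Calr 1456170_x_at was lowest on KO replicate 3 at 3010, the array with the high choroid plexus sum. Pdia3 1445330_at was highest on KO replicate 1 at 166. Pdia4 1416497_at was lowest on KO replicate 4 at 25.2. Pdia6 1430983_at was highest on KO replicate 5 at 73.8. The 2 cases on WT arrays were in probe sets below the dim filter, Ddit3 1443897_at on WT replicate 3 at 15.0 and Atf4 1439258_at on WT replicate 5 at 20.8. The reason for each was not tested.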

How the results depend on the processing

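Median centring, which moved the median difference of all probe sets from -0.13 to 0.15, called 550 of 45037 probe sets, 4 of 26 member probe sets and 6 wider list genes, and gave Hspa5 0.795 (limma adjusted p = 0.026). Testing 1 probe set per gene called 8 of 10916. With the replicate block, 1 probe set was called over all, 0 of the members (6 at an unadjusted p below 0.05), and Hspa5 was at 0.515; leaving out 1 array gave 0 to 1 calls over all, 0 member calls and an Hspa5 difference of 0.462 to 0.608. The block changed no call of a member. The count of genes correlated with Hspa5 was 0 after quantile normalisation, after median centring and over the spike-in arrays, and 0 to 1 without 1 array.

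Primary probe sets near 0 changed sign. Quantile normalisation gave -0.0607 for Hsp90b1, 0.102 for Calr, 0.173 for Pdia4 and 0.0775 for Xbp1. Median centring gave 0.251 for Calr, 0.25 for Pdia4, 0.216 for Xbp1 and 0.0329 for Atf4. The spike-in block gave -0.0197 for Canx, -0.00091 for Pdia3 and 0.0601 for Pdia4; spike-in arrays alone gave -0.155 for Hsp90b1 and 0.233 for Pdia4, and array weights 0.00737 for Pdia4. Without 1 array the ranges were -0.129 to 0.266 for Hsp90b1, -0.17 to 0.0871 for Calr, -0.023 to 0.0481 for Canx, -0.174 to 0.119 for Pdia3, -0.207 to 0.125 for Pdia4, -0.108 to 0.00279 for Xbp1, -0.373 to -0.156 for Atf4 (same sign) and -0.0273 to 0.467 for Ptges 1449450_at. The cause was not tested, except that median centring and leaving out arrays act by their construction. Hspa5, Pdia6 and Ddit3 kept their direction in all 21 settings. Without detection calls, the dim probe sets of Pdia3, Pdia4 and Atf4 have no known background.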
